A study of Mus musculus with 9 samples.

Results

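The 10 genes studied here act in antigen presentation by major histocompatibility complex (MHC) class I, and they were followed in mouse bone marrow-derived macrophages (BMDM). They were taken by symbol from a table of 24607 genes: the heavy chains H2-K1, H2-D1 and H2-T23, the light chain B2m, the peptide transporter genes Tap1 and Tap2, the loading factor Tapbp, the immunoproteasome subunits Psmb8 and Psmb9, and the transactivator Nlrc5. All 10 passed the filter on low values described below. The macrophages carried the CX3CR1-gfp/+ genotype and were grown from marrow with 50 ng/ml M-CSF, the macrophage colony-stimulating factor. They were then kept alone (monoculture), with neurons from dorsal root ganglia (DRG), the sensory ganglia beside the spinal cord (co-culture), or with 0.02 ng/ml TGF-β, transforming growth factor beta, and all groups shared the genotype and M-CSF. Each sample is labelled 5 d; the treatment protocol places this time before the conditions were set up, while the design text gives it for the co-culture. Cells were sorted on CD11b and CD64 before RNA was taken. Each condition had 3 libraries from 3 mice; the sources do not say whether the same mice served every condition, and p-values measure only the spread between these samples.

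MHC class I molecules display fragments of cytosolic proteins at the surface of nearly all nucleated cells, where CD8+ T cells read them. A polymorphic heavy chain pairs with beta-2 microglobulin and receives a peptide that was cut by the proteasome, pumped into the endoplasmic reticulum by the TAP transporter and loaded with the help of tapasin. In macrophages, interferons raise most of these genes, in large part through the transactivator NLRC5, which acts at a conserved promoter module made of the X1, X2 and Y boxes.

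Values are normalized counts, that is, reads divided by 1 size factor per library. Depth ran from 46.8 to 308.8 M reads (M, 1e6), 1 read was worth 0.346 to 2.27 normalized counts, and the lowest of the 10 genes in any library, Psmb9 in TGF-β 3, had 623 reads. The 8 listed symbols of macrophage markers name 7 genes, all in the table, since Emr1 and Adgre1 are the same gene. The summed macrophage markers lay between 923872 and 1551630 normalized counts in all 9 libraries. Most of this sum was lysozyme, Lyz2, and its members went different ways in co-culture against monoculture: Lyz2 (0.66 on the log2 scale) and Mertk (2.37) rose and Emr1, the F4/80 antigen, fell (-0.69). Summed fibroblast markers were 25.6 to 97.4 in monoculture, 5675 to 8156 in co-culture (at most 0.00739% of a library's total) and 19.5 to 91.8 with TGF-β. Summed sensory neuron markers were 19.6 to 74.7, 103 to 165 and 15.3 to 40.6 in the same order, and summed glial markers 5375 to 6157, 3962 to 4459 and 5087 to 5613, with the glial markers Ngfr at 0 and Sox10 near 0 outside co-culture. Summed endothelial markers were 1996 to 2452, 1602 to 2158 and 1166 to 1336; in co-culture against monoculture Pecam1 (2.65) and Cdh5 (1.10) rose and Kdr (-0.58) fell. The Y-linked gene Ddx3y was at 8547, 10040.0 and 8549 normalized counts in replicate 1 of monoculture, co-culture and TGF-β, where Xist was at most 221.75, while Xist was at least 29030.3 in every replicate 2 and 3. Each group thus held 1 male and 2 female libraries. Ddx3y was at 57.8 and 58.5 in co-culture 2 and 3 and at 0 in replicates 2 and 3 of the other groups. The part of admixed cells in the results below was not tested.

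In co-culture, 6 of the 10 genes fell against monoculture and 0 rose. The heavy chains H2-D1 and H2-T23 fell to 0.489 and 0.497 times their monoculture level, H2-K1 and Tapbp to 0.751 and 0.752 times, and the transporter genes Tap1 and Tap2 to 0.793 and 0.824 times. B2m, Psmb8, Psmb9 and Nlrc5 did not pass the test. Among all 16328 genes tested, 15.0% were called lower and 15.9% higher, 30.8% in either direction (limma, Benjamini-Hochberg adjusted p under 0.05). The median log2 fold change of the 10 genes was -0.31, beside 0.03 for all tested genes. In bulk RNA, fewer cells expressing a gene and less RNA per cell cannot be told apart.

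**Figure D1:**
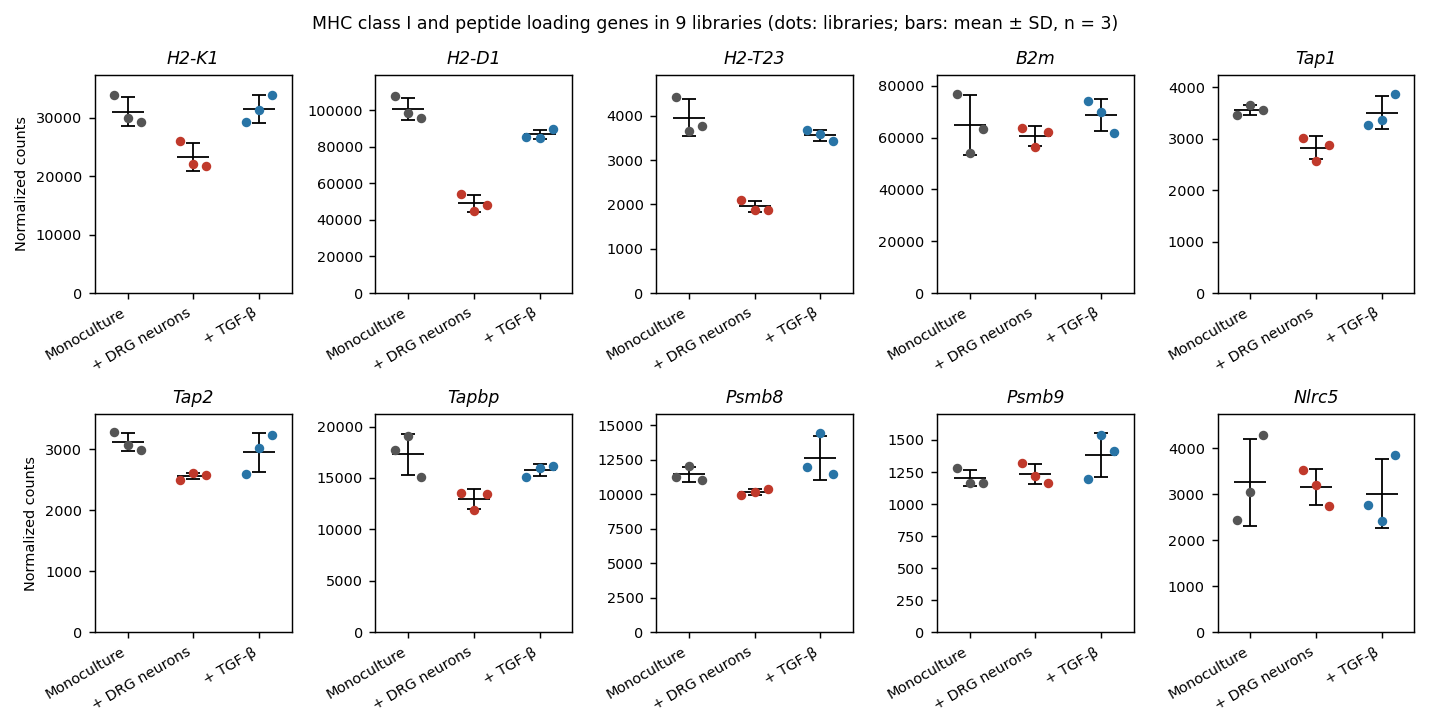
Normalized counts (y axis, from 0) of the 10 genes in the 3 conditions (x axis); dots are libraries, bars the mean ± SD (n = 3). All 3 co-culture dots lie below all 3 monoculture dots for 7 genes (H2-K1, H2-D1, H2-T23, Tap1, Tap2, Tapbp and Psmb8), whereas TGF-β dots lie below all monoculture dots only for H2-D1. Of all tested genes, 21.7% were lower than monoculture without overlap in co-culture and 9.64% with TGF-β.

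Among the heavy chains, H2-D1, the classical class I molecule of the D locus (chr17:35262730-35267499, plus strand, mm10), fell together with H2-T23 by the largest amounts of the 10 genes. It had 107505, 98308 and 95884 normalized counts in monoculture 1 to 3, 54204, 45071 and 48362 in co-culture 1 to 3, and 85550, 84954 and 89707 in TGF-β 1 to 3. Every co-culture library lay below every other library, and every TGF-β library lay between the co-culture and monoculture libraries. From monoculture (mean ± SD, 100566 ± 6131, n = 3) to co-culture (49213 ± 4625, n = 3) the log2 fold change was -1.03 ± 0.09 (estimate ± SE; limma adjusted p = 9.46e-07).

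H2-T23, the nonclassical molecule Qa-1, which presents leader peptides of other class I chains to CD94/NKG2A receptors on natural killer cells, lies at chr17:36029773-36032855 on the minus strand. It had 4434, 3655 and 3778 normalized counts in monoculture, 2106, 1882 and 1877 in co-culture, and 3674, 3593 and 3429 with TGF-β. The co-culture libraries again stood below all others, while TGF-β and monoculture overlapped. The fall in co-culture was -1.01 ± 0.09 on the log2 scale (limma adjusted p = 1.34e-06).

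H2-K1, the classical molecule of the K locus (chr17:33996017-34000347, minus strand), had 33851, 29937 and 29222 normalized counts in monoculture, 26069, 22110 and 21725 in co-culture, and 29227, 31239.5 and 33965 with TGF-β. Here too the co-culture libraries were the lowest, but the gap to the nearest monoculture library was smaller than for H2-D1. The log2 fold change was -0.41 ± 0.10 (limma adjusted p = 0.00464). Class I heavy chains resemble each other in sequence: 14.3% of the 50-base windows of the longest coding H2-D1 transcript, 28.8% of those of H2-T23 and 8.79% of those of H2-K1 also occur in transcripts of other genes. At 100 bases the shares were 4.64%, 7.28% and 0%. How reads shared between such genes were assigned is not given in the sources used here.

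The starts of these heavy chain genes and of B2m are shown for the letters of the class I promoter module. H2-D1, H2-K1 and H2-T23 fell while B2m was not called, and whether this module bears on that was not tested. The 160 bases before each RefSeq start (GRCm38.p6, read along the gene) are given with the X2 box letters and the Y box letters in capitals.
H2-D1 (chr17:35262934-35263093, plus strand): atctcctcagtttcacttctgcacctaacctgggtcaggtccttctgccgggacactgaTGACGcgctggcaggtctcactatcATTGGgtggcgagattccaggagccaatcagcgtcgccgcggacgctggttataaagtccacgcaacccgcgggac
H2-K1 (chr17:34000348-34000507, minus strand): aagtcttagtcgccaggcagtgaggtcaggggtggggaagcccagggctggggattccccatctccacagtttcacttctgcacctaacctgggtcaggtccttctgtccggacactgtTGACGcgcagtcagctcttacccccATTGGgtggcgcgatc
H2-T23 (chr17:36032702-36032861, minus strand): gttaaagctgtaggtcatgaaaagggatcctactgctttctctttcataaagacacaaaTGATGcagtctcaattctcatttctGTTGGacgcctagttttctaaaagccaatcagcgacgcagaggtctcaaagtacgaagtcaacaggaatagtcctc
B2m (chr2:122147527-122147686, plus strand): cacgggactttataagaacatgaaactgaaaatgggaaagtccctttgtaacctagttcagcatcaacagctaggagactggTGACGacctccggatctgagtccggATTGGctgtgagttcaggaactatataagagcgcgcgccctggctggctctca

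The pair TGACG and ATTGG, in this order with 20 bases between them and searched on both strands of the 250 bases before each start, was found at H2-D1, H2-K1 and B2m and in 30 of 32851 promoters (0.0913%). Of 9 heavy chain genes outside the 10 with a promoter in the table, 1 held it, H2-M3, which was not called in co-culture. At H2-T23 the corresponding letters read TGATG and GTTGG; freeing a letter in each box (TGANG, 21 bases, TTGG) added H2-T23 and raised the share of all promoters to 1.03%. H2-D1 and H2-K1 also held GGGATTCCC, of the kind bound by NF-kB (0.301% of promoters). Both held GAANTGAAA, a form of the interferon-stimulated response element (1.5% of promoters). Of the 9 other heavy chain genes with a promoter, 2 held GGGATTCCC and 5 held GAANTGAAA, among the latter H2-M3 and H2-Q4. H2-T23 and B2m held the form GAAANNGAA (7.13% of promoters), as did 1 of the 9 other heavy chain genes, H2-T22. The GGGATTCCC of H2-K1 lies within its printed stretch and that of H2-D1 upstream of it. The forms of the response element share the letters GAA and can overlap. Promoters of 8 of the 10 genes were in the table, without Tap2 and Nlrc5. The letters were chosen after the sequences were seen, a match is a description and not a shown binding site, and the GENCODE M21 annotation begins some transcripts of H2-D1 and H2-T23 further upstream than these RefSeq starts.

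The balance between the heavy chains differed between conditions by more than the spread of replicates. Per kilobase of the longest coding transcript, the ratio of H2-D1 to H2-K1 was 2.45, 2.53 and 2.53 in monoculture, 1.6, 1.57 and 1.71 in co-culture and 2.25, 2.09 and 2.03 with TGF-β. The 3 groups did not overlap, with co-culture lowest and TGF-β between. For each pair of groups the exact two-sided permutation test gave p = 0.1, the smallest that 3 against 3 libraries allow. The ratio of H2-D1 to B2m per kilobase was 0.572, 0.742 and 0.618 in monoculture, 0.349, 0.327 and 0.318 in co-culture, and 0.472, 0.499 and 0.593 with TGF-β. The co-culture ratios lay below all others, also with p = 0.1 in the exact permutation test against either group. For H2-K1 to B2m the values were 0.234, 0.293 and 0.245 in monoculture, 0.218, 0.208 and 0.186 in co-culture and 0.209, 0.238 and 0.292 with TGF-β. Co-culture lay below monoculture (exact permutation p = 0.1) but overlapped TGF-β. The ratios of H2-D1 to H2-K1, H2-D1 to B2m and those of Tap1 given below were added after the levels had been seen; with 8 ratios and 3 pairs of groups, none could pass an adjustment.

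**Figure D2:**
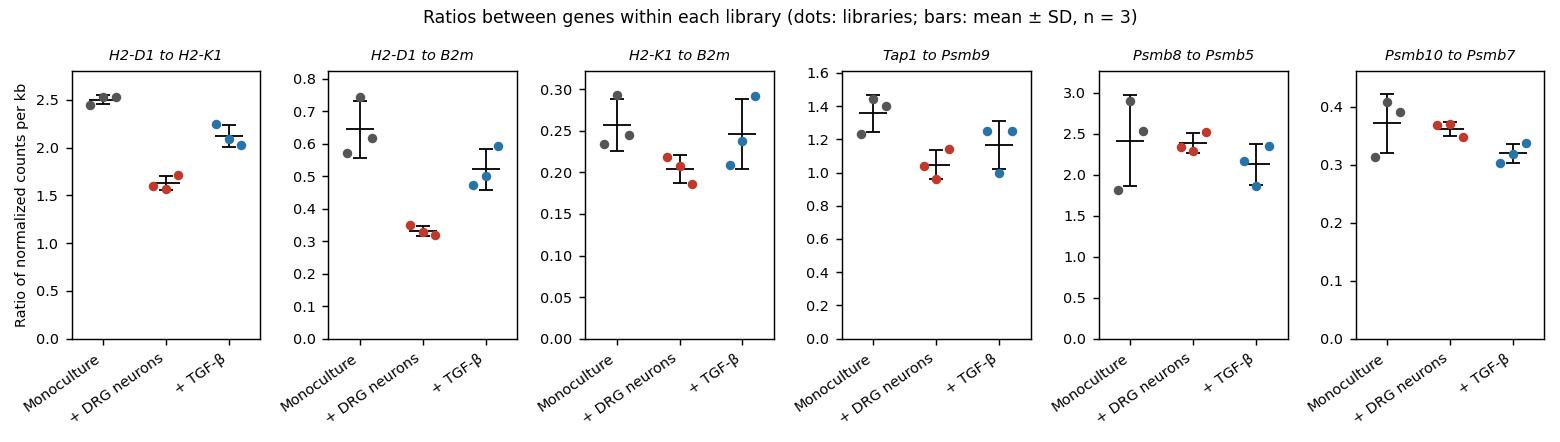
Ratios of normalized counts per kilobase (y axis, from 0) between named genes within each library, in the 3 conditions (x axis); dots are libraries, bars the mean ± SD (n = 3). The H2-D1 to H2-K1 ratio separates all 3 conditions (means 2.5, 1.63 and 2.13), whereas the Psmb8 to Psmb5 ratio overlaps throughout.

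B2m encodes beta-2 microglobulin, the light chain that every one of these heavy chains needs to reach the surface. It lies outside the MHC, at chr2:122147686-122153083 on the plus strand. It had 76908, 54195 and 63481 normalized counts in monoculture, 63565, 56363 and 62169 in co-culture, and 74209, 69714 and 61873 with TGF-β. The 3 conditions overlapped, with the lowest and the highest library both in monoculture. The log2 fold change in co-culture was -0.08 ± 0.12 (95% interval -0.34 to 0.18; limma adjusted p = 0.658), so a fall of the size seen in H2-D1 lies outside the interval and one of about the size of Tap2 does not. The sign turned to 0.05 without monoculture 1 and to 0.03 under quantile normalization. Per kilobase, B2m was the most abundant of the 10 genes in every condition, with means of 75420 in monoculture and 70580 in co-culture, ahead of H2-D1 with 47843 and 23412 and of H2-K1 with 19149.6 and 14392.

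Tap1 and Tap2 encode the paired chains of the transporter that carries peptides into the endoplasmic reticulum. They lie close together on chromosome 17 (chr17:34187553-34197225 and chr17:34203527-34216321, plus strand), with Psmb8 between them. Tap1 had 3450, 3658 and 3554 normalized counts in monoculture, 3010, 2569 and 2885 in co-culture, and 3268, 3365 and 3866 with TGF-β. All co-culture libraries were below all others, and the log2 fold change against monoculture was -0.33 ± 0.09 (limma adjusted p = 0.0123). Without co-culture 2 that call was lost (-0.27, adjusted p = 0.0753). Tap2 had 3273, 3060 and 2992 normalized counts in monoculture, 2499, 2604 and 2569 in co-culture, and 2594, 3011 and 3229 with TGF-β. Its co-culture libraries were below all of monoculture but overlapped TGF-β, where TGF-β 1 was the low library. Tap2 fell by 0.28 ± 0.09 on the log2 scale (limma adjusted p = 0.0338). This call was lost when monoculture 1, monoculture 2 or any co-culture library was left out (adjusted p = 0.0648 to 0.111) and without the filter on low values (0.0549). The Tap1 to Tap2 ratio per kilobase overlapped between all conditions.

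Tapbp encodes tapasin, which holds empty class I molecules at the transporter and favours tightly bound peptides (chr17:33915899-33929292, plus strand). It had 17719.5, 19035 and 15092 normalized counts in monoculture, 13584, 11875 and 13432 in co-culture, and 15109, 15972 and 16164 with TGF-β. Co-culture lay below every other library, and TGF-β overlapped monoculture. The fall was -0.41 ± 0.09 on the log2 scale (limma adjusted p = 0.00399). With H2-K1, H2-D1 and H2-T23, Tapbp was called in all 18 alternative settings for co-culture against monoculture. A stretch of 149 exonic bases of Tapbp is shared on the same strand with Zbtb22.

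The other chaperones and trimming enzymes of the loading pathway were not called. Of 7 genes, 0 passed limma in co-culture against monoculture, with a median log2 fold change of -0.02 and 0 at an unadjusted p under 0.05. The log2 fold change was -0.18 for Calr (calreticulin), 0.03 for Canx (calnexin), -0.02 for Pdia3 (the disulfide isomerase ERp57), 0.06 for Erap1 (the aminopeptidase that trims peptides in the endoplasmic reticulum) and -0.19 for Tapbpl, the tapasin relative that edits peptides outside the loading complex. Of 7 genes used in cross-presentation, the display of engulfed antigens on class I, Rab27a rose (0.87 ± 0.13, limma adjusted p = 9.65e-05) and 0 fell. Rises and falls were called for 15.9% and 15.0% of all tested genes.

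Psmb8 and Psmb9 encode LMP7 and LMP2, catalytic subunits that replace Psmb5 and Psmb6 in the immunoproteasome and change which peptide ends are made. Psmb8 (chr17:34197721-34201454, plus strand) had 11252, 12082 and 11063 normalized counts in monoculture, 9959, 10141 and 10389 in co-culture, and 11985, 14444 and 11469 with TGF-β. Its co-culture libraries did not overlap with monoculture, but the log2 fold change was -0.17 ± 0.09 and did not pass (95% interval -0.37 to 0.02; limma adjusted p = 0.173). It was the only gene of the 7 without overlap that was not called; 21.7% of all tested genes were lower in co-culture without overlap. Psmb9 (chr17:34181987-34187764, minus strand) had 1279.5, 1165 and 1166 normalized counts in monoculture, 1321.5, 1221 and 1161 in co-culture, and 1196, 1538 and 1416 with TGF-β. Its conditions overlapped, with a log2 fold change of 0.04 ± 0.11 in co-culture (95% interval -0.21 to 0.28; limma adjusted p = 0.852).

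Psmb9 and Tap1 are read in opposite directions from a shared stretch of 225 bases between their RefSeq starts, shown here because Tap1 was called and Psmb9 was not. A single TGACG is in capitals, in the direction of Tap1. It is a bare match of these letters; the pair with ATTGG was not found at Tap1 or Psmb9, also with letters freed.
Psmb9 to Tap1 (chr17:34187331-34187555, plus strand, GRCm38.p6): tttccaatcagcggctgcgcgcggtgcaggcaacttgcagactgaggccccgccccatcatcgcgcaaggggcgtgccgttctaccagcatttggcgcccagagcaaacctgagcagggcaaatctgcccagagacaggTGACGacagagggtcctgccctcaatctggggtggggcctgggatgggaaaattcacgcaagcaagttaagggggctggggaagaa

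The Tap1 to Psmb9 ratio per kilobase was 1.23, 1.44 and 1.4 in monoculture, 1.04, 0.963 and 1.14 in co-culture and 1.25, 1.0 and 1.25 with TGF-β. Co-culture lay below monoculture (exact permutation p = 0.1) and overlapped TGF-β. The exons of both genes overlap by 212 bases on opposite strands in GENCODE M21, and whether the counting used strand is not given in the sources used here.

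Of the standard subunits Psmb5, Psmb6 and Psmb7, 0 were called by limma in co-culture, with log2 fold changes of -0.18, -0.08 and 0.05 and 0 at an unadjusted p under 0.05. The Psmb8 to Psmb5, Psmb9 to Psmb6 and Psmb10 to Psmb7 ratios overlapped between co-culture and monoculture. Between co-culture and TGF-β, the Psmb8 to Psmb5 and Psmb9 to Psmb6 ratios overlapped too. The Psmb10 to Psmb7 ratio was 0.369, 0.37 and 0.348 in co-culture, above 0.303, 0.319 and 0.337 with TGF-β (exact permutation p = 0.1). Of 4 further immunoproteasome and activator genes, Psme2, a subunit of the PA28 activator, fell (-0.30 ± 0.10, limma adjusted p = 0.0278). Its partner Psme1 was at -0.13 and Psmb10, the third inducible catalytic subunit, at 0.02, neither called. Of 11 other subunits of the proteasome core, Psma1 (0.33) and Psmb2 (0.27) rose and 0 fell. In the same comparison, 15.9% of all tested genes rose and 15.0% fell.

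Nlrc5 (chr8:94434356-94527272, plus strand) encodes the transactivator of class I genes. It had 2450, 3045 and 4298 normalized counts in monoculture, 3528, 3202 and 2741 in co-culture, and 2773, 2417 and 3854 with TGF-β. It was the most variable of the 10 genes within monoculture, with a coefficient of variation of 28.9%, and the monoculture range enclosed every co-culture value. The log2 fold change was -0.02 ± 0.22 with a 95% interval of -0.52 to 0.48 (limma adjusted p = 0.967), which leaves room for a change in either direction as large as that of H2-K1. Leaving out monoculture 3 gave 0.20 and leaving out co-culture 3 gave 0.08, neither called.

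A list of 18 genes held transcription factors and other regulators of class I promoters or interferon signals. Of these, 3 rose and 4 fell in co-culture, with a median of -0.06. Of all tested genes, 15.9% were called higher and 15.0% lower. Irf1, an interferon-induced activator of class I and Tap1 transcription, rose: it had 2411, 2100 and 2719 normalized counts in monoculture and 3254.5, 3330 and 3191 in co-culture, without overlap (0.44 ± 0.11, limma adjusted p = 0.00527). Creb1, which binds the X2 box, rose by 0.51 and Irf8, a factor of macrophages and dendritic cells, by 0.27. Irf9 and Stat2, which carry the type I interferon signal to the nucleus, fell by 0.74 and 0.31. Rela, a subunit of NF-kB, fell by 0.32. Ciita, the class II counterpart of Nlrc5, was low throughout with 21.1, 24.2 and 28.7 normalized counts in monoculture and 2.08, 1.56 and 0 in co-culture (-1.63 on the log2 scale after adding 10, limma adjusted p = 0.000628). The X1 box subunit Rfx5 was at 0.29 (limma adjusted p = 0.0601) and Irf2 at -0.18, neither called.

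**Figure D3:**
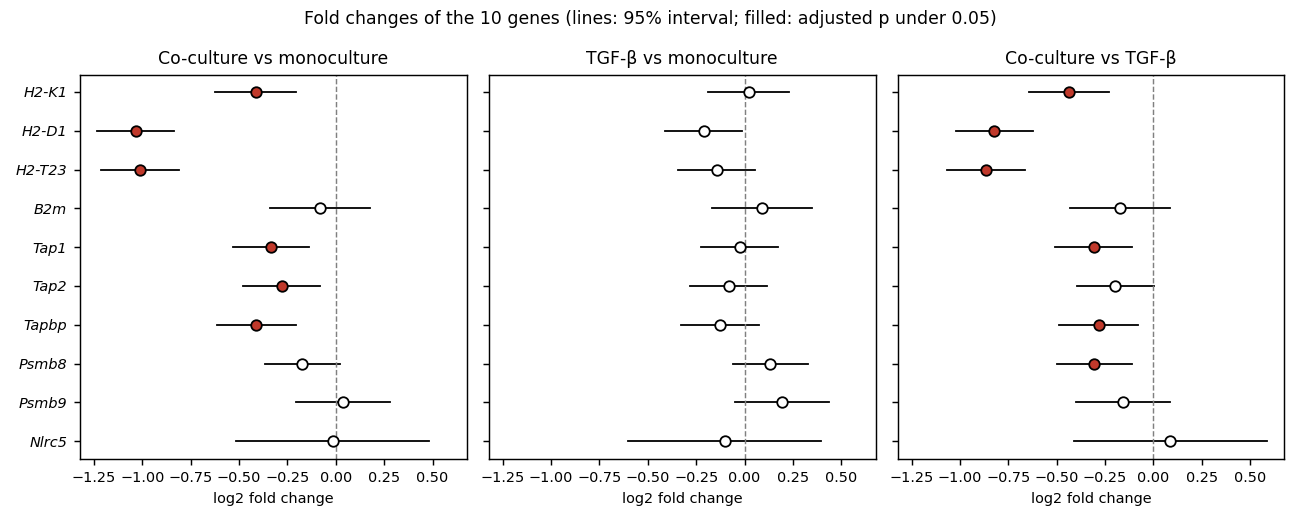
Log2 fold changes (x axis) of the 10 genes (y axis) in 3 comparisons; points are limma estimates, lines 95% intervals, and filled points have an adjusted p under 0.05. Filled points lie left of 0 for 6 genes in co-culture against monoculture, for 0 genes in TGF-β against monoculture and for 6 genes in co-culture against TGF-β.

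TGF-β alone left the 10 genes with no call against monoculture. By limma 0 of 10 passed, and by edgeR and by DESeq2 on the recovered reads also 0. H2-D1 alone had an unadjusted limma p under 0.05, and its adjusted p was 0.294. Of all tested genes, 2.52% were called in either direction, so 0 of 10 is near the background. H2-D1 was also the only one of the 10 whose TGF-β and monoculture libraries did not overlap, at -0.21 ± 0.09 on the log2 scale (95% interval -0.41 to -0.01); 9.64% of all tested genes were lower without overlap. The log2 fold change was -0.14 for H2-T23, 0.02 for H2-K1, 0.09 for B2m, -0.03 for Tap1, -0.08 for Tap2 and -0.13 for Tapbp. Psmb8, Psmb9 and Nlrc5 were at 0.13, 0.19 and -0.10. The interval of the H2-T23 difference ran from -0.35 to 0.06 and that of H2-K1 from -0.19 to 0.23.

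Set directly against TGF-β, co-culture was lower for 6 of the 10 genes and higher for 0; 11.9% of all tested genes were called lower and 13.4% higher, 25.3% in either direction. The libraries of the groups did not overlap for 6 genes, H2-K1, H2-D1, H2-T23, Tap1, Tapbp and Psmb8, all lower, beside 19.8% of all tested genes lower without overlap. This comparison uses the same co-culture libraries as the first, and its values are not independent of it. H2-D1 fell by 0.82, H2-T23 by 0.86 and H2-K1 by 0.44 (limma adjusted p = 1.38e-05, 9.66e-06 and 0.0042). Tap1 was at -0.31 (limma adjusted p = 0.0237), Psmb8 at -0.31 (0.0225) and Tapbp at -0.28 (0.0414). Tap2 (-0.20), B2m (-0.17), Psmb9 (-0.16) and Nlrc5 (0.09) were not called. The calls of the loading genes were fragile. Without co-culture 2, those of Tap1 (adjusted p = 0.128), Tapbp (0.188) and Psmb8 (0.0692) were lost and 3 of the 10 genes remained called. Tap1 was also lost without TGF-β 3 (0.0669), Psmb8 without co-culture 1 (0.0825) or TGF-β 2 (0.101), and Tapbp in 9 of 18 settings (adjusted p up to 0.188). Tap2 was called without TGF-β 1 (-0.29, adjusted p = 0.0488).

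The remaining class I heavy chains were followed to see how far the fall reached. Of 19 listed genes, 14 were in the table and 9 were tested. Among these 9, 3 fell and 0 rose in co-culture, with a median of -0.37 (all tested genes: 15.0% fell, 15.9% rose). H2-T24, a nonclassical gene of the T region, fell furthest: it had 875, 812 and 1166 normalized counts in monoculture, 316, 221 and 204 in co-culture and 839, 671 and 818 with TGF-β. Its co-culture libraries lay far below all others (-1.91 ± 0.19, limma adjusted p = 2.15e-06). H2-Q4 fell by 0.70 ± 0.15 and H2-T22 by 0.50 ± 0.10 (limma adjusted p = 0.0024 and 0.00162), but 44.7% of the 50-base windows of H2-T22 and 24.3% of those of H2-Q4 occur in other genes. H2-M3, which presents formylated peptides of bacteria and mitochondria, was at 0.14 and was not called. With TGF-β, 0 of the 9 were called by limma and 1, H2-M3, had an unadjusted p under 0.05 (0.31 on the log2 scale, limma adjusted p = 0.17). Of all tested genes, 2.52% were called with TGF-β in either direction, so 0 of 9 is near this share.

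Genes of class I-like proteins, which share the fold but not the task of presenting cytosolic peptides, mostly went the other way. Of 7 listed, 5 were tested. Among these 5, 4 rose and 1 fell in co-culture, with a median of 0.82 (all tested genes: 15.9% rose, 15.0% fell). Mr1, which presents microbial vitamin B metabolites to MAIT cells, had 726, 797 and 683 normalized counts in monoculture, 2674.5, 2216 and 2187 in co-culture, and 1143, 1053 and 1070 with TGF-β. The 3 conditions did not overlap, with co-culture highest and TGF-β between. The rise was 1.67 ± 0.11 in co-culture (limma adjusted p = 5.23e-08) and 0.56 ± 0.11 with TGF-β (0.0144). Hfe, a regulator of iron uptake, had 2270, 2755 and 2319 normalized counts in monoculture, 6576, 6179 and 5625 in co-culture, and 3407, 3603 and 3231.5 with TGF-β. It too rose in both, by 1.32 ± 0.10 (limma adjusted p = 1.19e-07) and by 0.48 ± 0.10 (0.0147), without overlap.

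Fcgrt, the neonatal Fc receptor that spares antibody from lysosomes, rose in co-culture (0.77 ± 0.08, limma adjusted p = 6.74e-06) and was at -0.11 with TGF-β, not called. Cd1d1, which presents lipids to NKT cells, rose by 0.82 in co-culture (limma adjusted p = 0.00179) and was at 0.56 with TGF-β, not called (adjusted p = 0.11). Procr, the endothelial protein C receptor, fell by 1.86 in co-culture (limma adjusted p = 1.06e-06). These proteins differ in their need for the light chain: those of Mr1, Hfe, Fcgrt and Cd1d1 pair with beta-2 microglobulin and that of Procr does not. Promoters of Mr1, Hfe, Fcgrt and Procr were in the table, without Cd1d1. Of the motifs searched above, these 4 held a single match, GAAANNGAA at Hfe. The interferon gamma-activated site TTCNNNGAA, which 7.02% of all promoters hold, was found at Psmb8 and H2-M3 and in none of these 4.

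**Figure D4:**
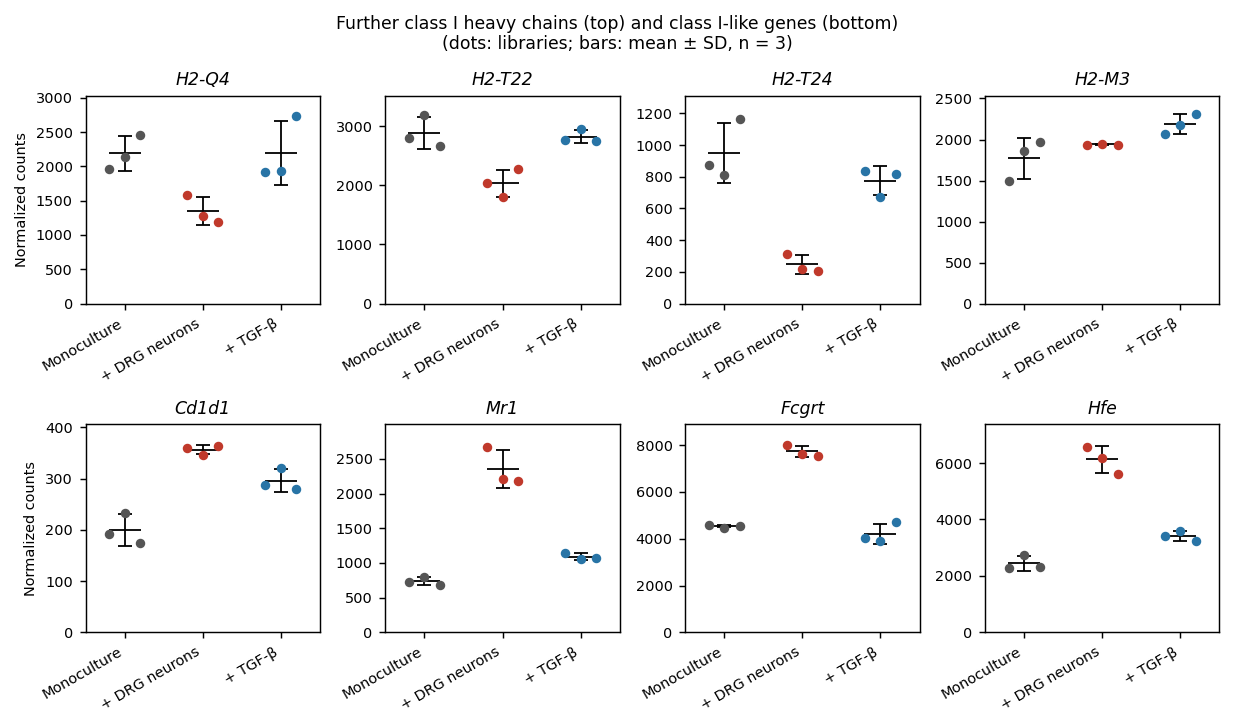
Normalized counts (y axis, from 0) of further class I heavy chains (top row) and class I-like genes (bottom row) in the 3 conditions (x axis); dots are libraries, bars the mean ± SD (n = 3). Co-culture is lowest for H2-Q4, H2-T22 and H2-T24 and highest for Cd1d1, Mr1, Fcgrt and Hfe, while for H2-M3 it overlaps monoculture.

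Interferon-related lists give the surroundings in which these genes moved. The shares of all tested genes called were 15.9% higher and 15.0% lower in co-culture, and 2.52% in either direction with TGF-β. Of 20 type I interferon-stimulated genes, 19 fell and 0 rose in co-culture, with a median of -2.17. Oasl2, a 2'-5' oligoadenylate synthetase relative, had 7388, 7286 and 8223 normalized counts in monoculture, 1221, 963 and 1381 in co-culture, and 5302, 5306 and 5733.5 with TGF-β. Its 3 conditions did not overlap, and it fell by 2.69 in co-culture (limma adjusted p = 8.07e-10) and by 0.48 with TGF-β (0.041). With TGF-β, 4 of the 20 were called lower (Oasl2, Ifit2, Oasl1 and Cmpk2), with a median of -0.40. Of 14 tested GTPase genes induced by interferon gamma, 5 rose and 3 fell in co-culture, among them Gbp8 (4.39), Gbp3 (1.84) and Gbp7 (1.72) upward and Irgm1 (-0.70), Tgtp2 (-1.47) and Ifi47 (-0.48) downward. Reads of neighbouring Gbp copies may be split between them. Of 8 interferon receptor and kinase genes, Ifngr2 (0.46), Ifnar2 (0.23) and Jak2 (0.35) rose and 0 fell; Ifngr1, the ligand-binding chain of the interferon gamma receptor, was at 0.00. None of 7 listed interferon genes was in the table used here.

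Of 9 MHC class II and loading genes, 4 rose and 1 fell in co-culture, with a median of 0.60 (all tested genes: 15.9% rose, 15.0% fell). H2-DMa, H2-DMb1, H2-DMb2 and H2-Ob, which load class II or regulate loading, rose by 1.98, 0.60, 2.72 and 2.26, and Cd74, the invariant chain, fell by 0.54 (limma adjusted p = 0.00515). With TGF-β, 2 of the 9 rose and 0 fell, with a median of 0.54 (all tested genes: 2.52% called in either direction). The class II chain gene H2-Aa was among these 2 (2.03, limma adjusted p = 0.00777). It went from between 6.20 and 6.91 normalized counts in monoculture to between 29.5 and 89.6 with TGF-β, and was at 5.47 to 12.8 in co-culture.

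**Figure D5:**
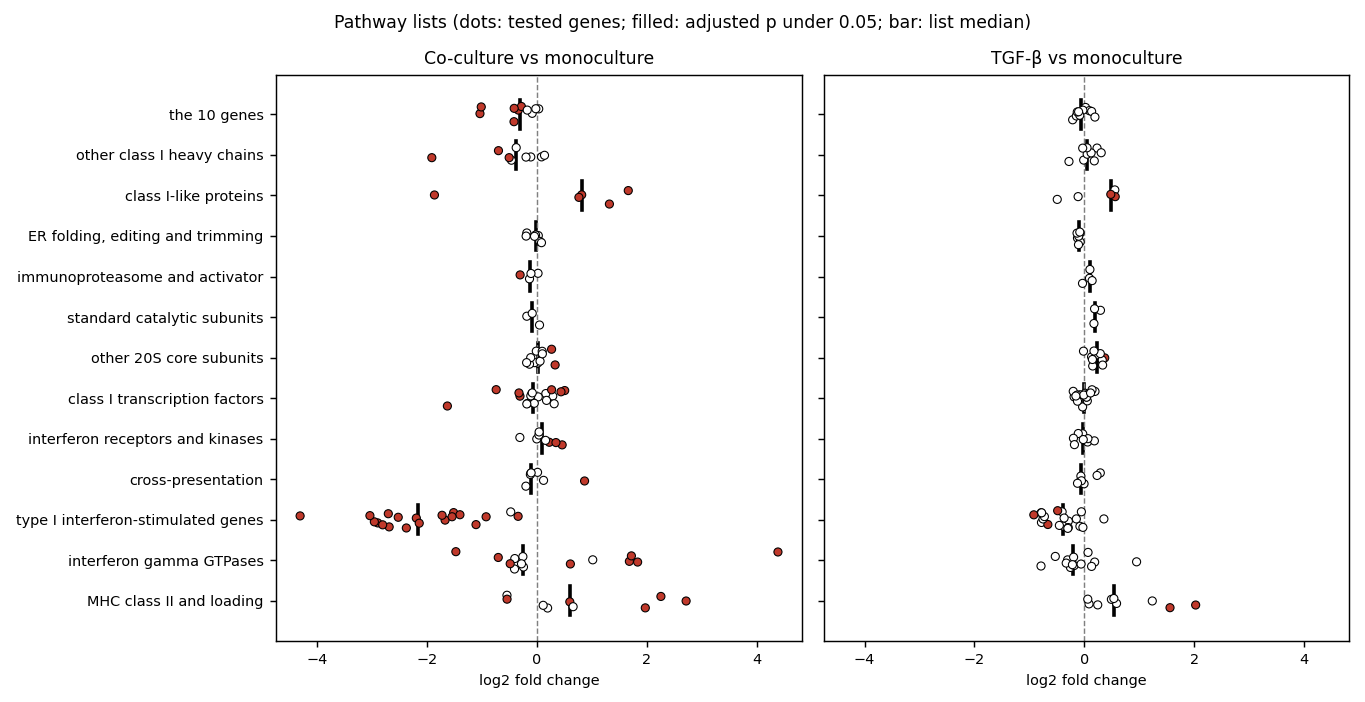
Log2 fold changes (x axis) of the genes in each pathway list (y axis) for co-culture and for TGF-β against monoculture; dots are tested genes, filled dots have a limma adjusted p under 0.05, and black bars are list medians. In co-culture the median is -0.31 for the 10 genes, 0.82 for class I-like proteins and -2.17 for type I interferon-stimulated genes.

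The genes whose profile over the 9 libraries was nearest to the mean profile of the 10 genes were sought among 11551 tested genes with a mean of at least 100 normalized counts. By root mean square difference on the log2 scale they were Dcaf11 (0.027), Anapc2 (0.0407), 2510002D24Rik (0.048), Trim21 (0.048) and Tor1aip2 (0.0544). Their log2 fold changes in co-culture against monoculture ran from -0.37 (Trim21, a cytosolic antibody receptor) to -0.32 (Tor1aip2). These values follow from the choice of the genes by nearness to the mean profile over the same libraries. The mean profile joins genes that fell with genes that were not called.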

How the data were processed

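Per the labels' protocols, 9 libraries were made from 10 ng RNA of sorted macrophages with the SMART-Seq Stranded chemistry. The submitters' processing notes name build mm10 with STAR 2.7.3, DESeq2 1.24.0, bcl2fastq 2.20 and, for R, version 3.6.1; the counting step and annotation are not given in the sources used here. The authors deposited a signal per gene and library that the values themselves show to be gene counts divided by a size factor (100% whole reads within 0.05).

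Genes reaching 10 normalized counts in 3 or more libraries (16328 of 24607) were tested with limma 3.58.1 (trend and robust empirical Bayes, R 4.3.3) on log2(value + 10). All 9 libraries entered 1 fit with group as the factor, and p-values were adjusted by Benjamini-Hochberg over all tested genes. The added 10 shrinks fold changes of low genes. An edgeR test had been planned for whole counts; edgeR 4.0.16 and DESeq2 1.42.0 on the recovered reads became alternatives. The code was tested on simulated data. "Rose", "fell" and "called" mean an adjusted p under 0.05.

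Positions are from GENCODE M21, which matched 24335 identifiers; promoters are from RefSeq (GRCm38.p6). Lengths are of the longest coding transcript. The 10 genes and all lists were chosen with earlier results of these data known. Named genes are the 10, a fixed set of pathway genes, up to 3 genes of smallest p per list and comparison, and the 5 nearest profiles; Ddx3y, Xist, Zbtb22, Ngfr, Sox10, H2-DMb1, Ifi47, Irf8, Oasl1, Rela, Stat2 and Tgtp2 were named after their values were seen.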

Additional observations from a re-analysis of the deposited data

How the results depend on the processing

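Of 540 combinations of gene, comparison and setting (10 genes, 3 comparisons, 18 settings), 503 kept their direction and their side of the threshold; 21 lost a call, 1 gained one and 15 changed sign, all of the last without a call. H2-K1, H2-D1, H2-T23 and Tapbp stayed called in co-culture against monoculture in all 18 settings, with log2 fold changes of -0.50 to -0.34, -1.11 to -0.84, -1.06 to -0.93 and -0.50 to -0.34. Quantile normalization turned B2m to 0.0336 there (adjusted p = 0.849).

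Leaving out 1 library at a time gave -0.205 to 0.0475 for B2m, -0.0136 to 0.0805 for Psmb9 and -0.20 to 0.20 for Nlrc5 in co-culture against monoculture. For TGF-β against monoculture it gave -0.034 to 0.0871 for H2-K1, -0.0306 to 0.222 for B2m, -0.0991 to 0.0216 for Tap1, -0.152 to 0.0057 for Tap2 and -0.29 to 0.11 for Nlrc5. For co-culture against TGF-β it gave -0.058 to 0.278 for Nlrc5. The number of the 10 genes called lower ran from 4 to 6 in co-culture against monoculture and from 3 to 6 in co-culture against TGF-β (3 without co-culture 2). All genes called with TGF-β against monoculture numbered 412, but 909 with DESeq2 and 165 to 939 with 1 library left out: 269 without monoculture 1, 249 without monoculture 2, 165 without TGF-β 1, 247 without TGF-β 2 and 939 without TGF-β 3. The cause was not tested.

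The replicate numbers were not shown to pair libraries across conditions: correlations of deviations ran from -0.15 to 0.37 for 9 same-numbered pairs and from -0.35 to 0.25 for 18 others. Replicate 1 was male and replicates 2 and 3 female in every condition. With the replicate block 4926 genes were called in co-culture against monoculture (5033 without), 397 with TGF-β against monoculture (412) and 3956 in co-culture against TGF-β (4128). Of the 10 genes it changed 1 call, Tapbp in co-culture against TGF-β (adjusted p = 0.0654). The 10 genes had at least 623 reads in every library, and an effect of depth was not tested. Each group had only 3 libraries. Among the 10 genes, the SE of the difference between co-culture and monoculture was largest for Nlrc5 (0.22).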
